A study of Caenorhabditis elegans with 2 samples.

Results

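The genes described here encode the splicing machinery of Caenorhabditis elegans. They are the protein-coding genes of the WBcel235 annotation whose symbol begins with snr-, rsp-, prp-, sftb-, uaf-, lsm- or snrp-, which gives 45 of 19973 nuclear protein-coding genes. The rule uses symbols and no measured value, but it was set with earlier results of these data known. Occupancy of their promoters by ZFP-2, a zinc finger protein, was read from ChIP-seq peak lists of whole hermaphrodites. The animals were L4 larvae of strain OP534, genotype unc-119(tm4063) III; wgIs534, in which an integrated transgene makes ZFP-2 with a C-terminal GFP and FLAG tag, and they were collected 52 hours after L1 arrest. The immunoprecipitation used an antibody to GFP, and 2 biological replicates, numbered 1 and 2, form 1 group, so there is no contrast between conditions. Whole animals were used, so strong occupancy in few cells and weak occupancy in many cannot be told apart.

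Introns are removed by the spliceosome, which is built from small nuclear ribonucleoproteins (snRNPs), each an snRNA bound by proteins. Sm proteins form a ring on the U1, U2, U4 and U5 snRNAs, and LSm proteins form a similar ring on U6. Prp proteins were named from yeast mutants in pre-mRNA processing and act from early assembly to catalysis, U2AF and SF3b proteins mark the 3′ end of the intron and the branch point, and SR proteins bind exons and help the machinery choose splice sites. Many worm messages are also trans-spliced, so that the annotated 5′ end of a gene can lie downstream of the true start of transcription.

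The thresholded list held 660 peaks on ce11, of which 642 were nuclear. It is the upper end, by signal, of a pooled list of 14658 peaks made from both replicates, and the replicate lists held 18200 and 17770 peaks. Pooled and replicate lists include background calls. Peak signal is the authors' value, its scale differs between lists, and the read depth behind it is unknown. A gene was counted as holding a summit when the summit of a peak lay in its promoter window, from 1000 bp upstream to 200 bp downstream of an annotated 5′ end.

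A thresholded summit lay in the promoter windows of 11 of the 45 splicing genes (24.4%, exact Clopper-Pearson 95% interval 12.9 to 39.5), against 2.79% of all nuclear protein-coding genes. They were the Sm protein genes snr-1, snr-3 and snr-4, the SR protein genes rsp-1, rsp-2, rsp-5, rsp-6 and rsp-7, the U1 snRNP gene snrp-3, and prp-8 and prp-19. These 11 genes were reached by 10 peaks, all 436 bp wide, and 4 of the 10 lay in the window of a single gene that was a splicing gene by symbol. The same share over all promoter peaks is not given here. The interval treats genes as independent, which genes that share a peak are not, and it covers counting error only.

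The sequence at these summits is shown for the promoters shared by splicing genes, for the strongest peak, and for the summits that carry any of 3 words. The words were picked from earlier results on these same peaks, so their presence at summits is no independent support. Each run is 101 bases long, 5′ to 3′ on the plus strand of WBcel235 (RefSeq genome sequence), with the summit at its centre. Capitals mark the 6-base words ACGCAG and GACGCA and AGACGC, which overlap one another, on either strand.
rsp-1 and rsp-2 (chrII:11453195-11453295): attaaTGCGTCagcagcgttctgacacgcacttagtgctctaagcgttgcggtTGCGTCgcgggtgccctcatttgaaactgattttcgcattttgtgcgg
rsp-7 and snu-13 (chrII:10658886-10658986): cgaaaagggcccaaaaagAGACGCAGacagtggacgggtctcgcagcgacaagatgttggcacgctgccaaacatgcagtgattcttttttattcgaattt
snr-1 (chrIV:17087544-17087644): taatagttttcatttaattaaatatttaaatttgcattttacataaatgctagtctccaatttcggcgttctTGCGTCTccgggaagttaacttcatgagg
rsp-6 (chrIV:7791294-7791394): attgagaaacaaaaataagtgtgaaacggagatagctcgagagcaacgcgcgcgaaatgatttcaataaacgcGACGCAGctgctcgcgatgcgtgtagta
rsp-5 and snr-3 (chrII:6489909-6490009): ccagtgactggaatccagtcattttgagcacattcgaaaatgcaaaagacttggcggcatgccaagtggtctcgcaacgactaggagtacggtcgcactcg
prp-8 (chrIII:8164029-8164129): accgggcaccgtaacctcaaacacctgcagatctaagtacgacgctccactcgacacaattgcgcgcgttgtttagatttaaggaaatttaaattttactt

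At least 1 of these words stood within 50 bp of the summit at 4 of the 10 peaks, those of rsp-7, snr-1, rsp-6 and the rsp-1 and rsp-2 pair. Among the 396 thresholded summits in any promoter window 127 (32.1%) had one, as had 5.47% of 101-bp windows centred 200 bp upstream of all genes. GACGCA was present at all 4, and at the rsp-1 and rsp-2 summit it occurred on the minus strand at more than 1 place, as the capitals show. It stood at 19.4% of promoter summits and in 3.15% of the upstream windows. ACGCAG stood at 2 of the 10 peaks, rsp-7 and rsp-6, against 18.4% of promoter summits, and AGACGC at rsp-7 and snr-1, against 16.4% of promoter summits. In the rsp-7 sequence the 3 words run together into a single stretch of 8 capitals. The snr-1 sequence has 7 capitals in a run, and its GC content, 31.7%, was the lowest of the 10, which ran to 51.5% with a median of 47.5%. The median over promoter summits was 50.5%. No word was found at the rsp-5 and snr-3 summit or at prp-8.

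The shared promoters were the first feature of the set. The SR protein genes rsp-1 and rsp-2 lie head to head on chromosome II with 407 bp between their nearest 5′ ends, and a single peak from 11453027 to 11453462 lay between them. Its summit was 117 bp upstream of rsp-1 and 290 bp upstream of rsp-2. The signal was 120 in the thresholded list, at rank 310, and 49.7 in replicate 1 (rank 387) and 64.3 in replicate 2 (rank 368). Also on II, rsp-5 and snr-3, the gene of the core snRNP protein Sm D1, are separated by 404 bp. Their peak, from 6489741 to 6490176, had signal 98.9 at rank 463, with 42.2 in replicate 1 and 57.8 in replicate 2. The summit was 198 bp from snr-3 and 206 bp from rsp-5, so the nearest gene is snr-3 by a narrow margin. The third pair joins rsp-7 to snu-13, the worm gene of a small protein that binds U4 snRNA and box C/D snoRNAs, with 580 bp between them. Signal at that peak, from 10658718 to 10659153, was 153 (rank 211), and the replicates gave 75.2 (rank 177) and 76.4 (rank 255). The summit lay inside M28.13, an unclassified noncoding RNA gene between the pair.

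Besides the members by symbol, 110 other genes of splicing and of linked steps were listed. The list was written with earlier results of these data known. In all 155 genes together, 3 pairs lay head to head within 2000 bp, these same pairs, and each had a shared summit. Across the genome 164 of 3190 such pairs (5.14%) had a shared thresholded summit. The count of pairs depends on the list: sftb-6, an SF3b protein gene, lies 377 bp from luc-7L3, a LUC7-like gene outside both lists that is named here after its values were seen. The strongest sftb-6 summit fell below the threshold, at pooled rank 990 (signal 69.2), so with luc-7L3 counted 3 of 4 pairs had a shared summit.

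Head-to-head neighbours were common in the set. Of the 45 splicing genes 29 (64.4%) had an oppositely oriented 5′ end of another protein-coding gene within 2000 bp upstream, against 29.2% of all genes. Among those 29, a thresholded summit was held by 8 (27.6%), against 6.11% of all genes with such a neighbour. The remaining 16 included 3 with a summit (18.8%), against 1.42% of all genes without one. The 3 are snr-4, rsp-6 and snrp-3, and none of them was reached by the 660 strongest peaks of both replicates. With a head-to-head neighbour, the 660 strongest peaks of either replicate reached 8 of the 29, against 6.18% of all such genes in replicate 1 and 6.04% in replicate 2. Without one, they reached 2 of 16 in replicate 1 (rsp-6 and snrp-3, against 1.42%) and 1 of 16 in replicate 2 (snr-4, against 1.37%). The count in that layout therefore rests on few genes and changes with the replicate. Genes that follow another gene on the same strand within 500 bp, a layout that takes in worm operons, numbered 12 (26.7% of the set, against 18.1% of all genes). Of these 12, rsp-6 and snrp-3 held a summit, against 1.91% of all genes in that layout, and 9 of the 33 others did, against 2.99%. The gaps at rsp-6 and snrp-3 are 474 and 465 bp, near the 500 bp limit. Neither lsm-5 and snrp-27, with gaps of 482 and 479 bp, nor the members with gaps from 90 to 357 bp held a summit. The 660 strongest peaks of replicate 1 reached the same 2 of 12 (against 2.07%), and those of replicate 2 reached 0 of 12 (against 1.55%). Of the 33 others they reached 8 (against 2.97%) and 9 (against 3%).

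All 11 genes had their strongest summit upstream of the nearest annotated 5′ end, as did 535 of the 558 genes in the genome with a thresholded summit (95.9%). The window reaches 1000 bp upstream and only 200 bp downstream, so it favours upstream summits. Distances ran from 115 bp at rsp-6 to 658 bp at prp-19, with a median of 270 bp, close to the 260 bp over all 558 genes.

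Against 2.79% of all genes, the Sm ring was reached at 3 of its 7 genes (42.9%, interval 9.9 to 81.6). The peak of snr-1, which encodes Sm D3, was the strongest of them, from 17087376 to 17087811 on IV, with signal 139 at rank 249. Replicate 1 gave 60.5 (rank 264) and replicate 2 gave 76.3 (rank 259), so the peak stood at nearly the same rank in both. Its summit was 455 bp upstream of snr-1 but 156 bp from the 5′ end of the divergent snx-13, a sorting nexin gene. With snr-3, described above, the third is snr-4, the gene of Sm D2 on V.

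The snr-4 locus differed in layout and between replicates. There were 2 overlapping peaks, from 11979867 to 11980302 (signal 96.6, rank 490) and from 11980073 to 11980508 (signal 103, rank 428), with summits 206 bp apart. An annotated snRNA gene of 144 bp, from 11980118 to 11980261 on the plus strand, lies between these summits, 33 bp from the first and 30 bp from the second. The first summit also lies in an exon of C52E4.14, another noncoding RNA gene. The sequence of that snRNA gene occurs 2 times in the genome, and both copies are annotated. The first peak had signal 33.1 in replicate 1 (rank 926) and 64.7 in replicate 2 (rank 358), and the second 25 (rank 1943) and 82.4 (rank 226). Neither is among the 660 strongest of replicate 1, and both are among those of replicate 2. The part of the snRNA gene in these peaks was not tested. Without summits within 250 bp of tRNA, snoRNA and snRNA genes, an alternative chosen after seeing the data, snr-4 held none, and 10 splicing genes remained against 2.48% of all genes. Such summits made up 56 of the 396 in promoter windows (14.1%).

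The other Sm genes, for proteins B, E, G and F, had their strongest pooled summits far down the list. Signals were 37.2 at snr-2, 35.6 at snr-6, 32.6 at snr-7 and 29.4 at snr-5, with ranks from 4654 to 9498. All 7 Sm genes held some pooled summit, but that list includes background calls and reaches 25.4% of all genes.

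None of the 7 LSm genes held a thresholded summit, against 2.79% of all genes, and at that share 0 of 7 is near the background. The count allows a share of up to 42.9% by the limit of 3 counts of the total. The strongest pooled summit was at lsm-1, whose protein belongs to a cytoplasmic ring that acts in mRNA decay, with signal 52.2 at rank 1799. Its head-to-head neighbour is rps-9, a ribosomal protein gene. Pooled signals of the LSm genes of the U6 ring were 48.1 at lsm-7, 45.6 at lsm-3, 41.1 at lsm-6 and 38.9 at lsm-8. At lsm-6 the replicates differed in rank, with signal 30.1 at rank 1183 in replicate 1 and 15.3 at rank 17503 in replicate 2. No pooled summit lay at lsm-4 or lsm-5, and 4 of the 7 LSm genes follow another gene within 500 bp on the same strand.

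Among the 5 snrp- genes, snrp-3, which encodes the U1 C protein of the snRNP that first recognises the 5′ splice site, had the weakest of the 10 peaks. It ran from 8687749 to 8688184 on IV with signal 85.1 at rank 639, just above the lowest thresholded signal of 83.8. The replicate signals were 39.1 (rank 645) and 45.5 (rank 803), so it was outside the 660 strongest of replicate 2. The U5 protein gene snrp-40.1, on X, came next with a pooled signal of 73.7 at rank 874. The helicase gene snrp-200 had signal 30.5 at rank 8557, with a summit in replicate 2 (27.3) and none in replicate 1. No pooled summit was found for snrp-27 or snrp-40.2.

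The 5 genes of the SF3b and U2AF proteins held 0 thresholded summits, against 2.79% of all genes. At that share 0 of 5 is near the background, and the count allows up to 60%. Below the threshold, sftb-6 was followed by sftb-1, the gene of the largest SF3b protein, with pooled signal 67.5 at rank 1044 and replicate signals of 30.1 and 37.0. The small U2AF subunit gene uaf-2 had 39.7 at rank 3812. No pooled summit lay at sftb-2, where replicate 2 gave a signal of 16. The large subunit gene uaf-1 had no summit in the pooled list or in either replicate list.

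Of the 13 Prp genes, 2 (15.4%) held a summit, against 2.79% of all genes. The interval, 1.92 to 45.4, includes that share. The peak of prp-8, which encodes the U5 scaffold at the centre of the spliceosome, was the strongest of the whole set. It ran from 8163861 to 8164296 on III with signal 176 at rank 168, and 61.3 in replicate 1 (rank 255) and 106 in replicate 2 (rank 150). The summit was 294 bp upstream of prp-8 and also in the window of bath-42, a gene of a BTB and MATH domain protein. The prp-19 gene, also on III, encodes the ubiquitin ligase that names a complex needed for catalytic activation. Its peak, from 5172485 to 5172920, had signal 108 at rank 393, with 45.8 (rank 452) and 65.5 (rank 347) in the replicates. That summit stood 658 bp upstream of prp-19 and 17 bp from the 5′ end of K10D2.5, an uncharacterized gene, and it was also in the window of emb-1, a subunit of the anaphase-promoting complex. Below the threshold came prp-40 (pooled signal 75.9, rank 814) and prp-9 (61.7, rank 1272), whose head-to-head neighbours mrps-23 and mrps-18B are mitochondrial ribosomal protein genes. Lower still were prp-21 (37.0, rank 4753), prp-38 (31.4, rank 7860) and prp-4 (27.4, rank 11595). Of the 13, 6 had no pooled summit, and 4 of these, prp-3, prp-6, prp-17 and prp-18, had none in any list. The U4/U6 protein gene prp-31 had a summit of signal 30.6 in replicate 2 (rank 2289) and none in replicate 1.

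SR protein genes had the highest share, 5 of 8 (62.5%, interval 24.5 to 91.5), against 2.79% of all genes. Besides the 4 in shared promoters, rsp-6 on IV had a peak from 7791126 to 7791561 with its summit 115 bp upstream. Its signal was 91.4 at rank 551, with 40.4 in replicate 1 (rank 600) and 42.2 in replicate 2 (rank 955). It was therefore outside the 660 strongest peaks of replicate 2. Of the remaining genes, rsp-8 had a pooled signal of 52.9 (rank 1742) and rsp-3, the worm relative of the splicing factor SF2/ASF, 31.0 (rank 8211). No pooled summit lay at rsp-4, the relative of SC35, where replicate signals were 15 and 15.8.

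Core snRNP genes, taken as the Sm and snrp- genes with lsm-3 to lsm-8, held summits at 4 of 18 (22.2%, interval 6.41 to 47.6). Over all genes the share was 2.79%. The intervals of SR and core snRNP genes overlap, and no test of their difference was run. The 5 SR genes were reached by 4 peaks and the 4 core genes by 5, with the rsp-5 and snr-3 peak counted in both. When each summit was instead given only to the gene with the nearest 5′ end, at any distance, 3 SR genes and 3 core genes were left. That count does not use the promoter window, so its shares are not on the same measure as those above. In it 7 of all 45 splicing genes (15.6%) had a summit, against 2.99% of all genes. The losses were rsp-2, rsp-5, snr-1 and prp-19.

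**Figure D1:**
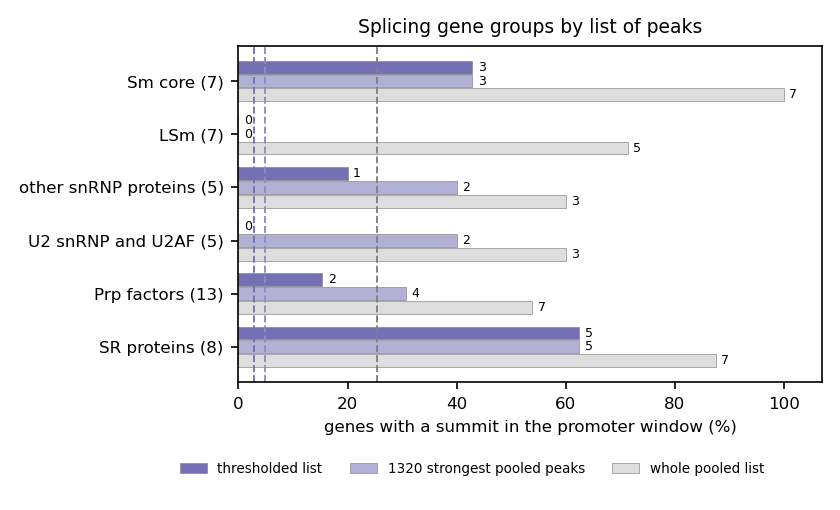
Bars give the percentage of genes in each splicing group, with its number of genes in brackets, that held a summit in the promoter window, for the thresholded list, the 1320 strongest pooled peaks and the whole pooled list, with the gene count at each bar. Dashed lines mark the same share over all nuclear protein-coding genes (2.79%, 4.93% and 25.4%), and the SR protein group has the highest thresholded share with 5 of 8 genes.

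**Figure D2:**
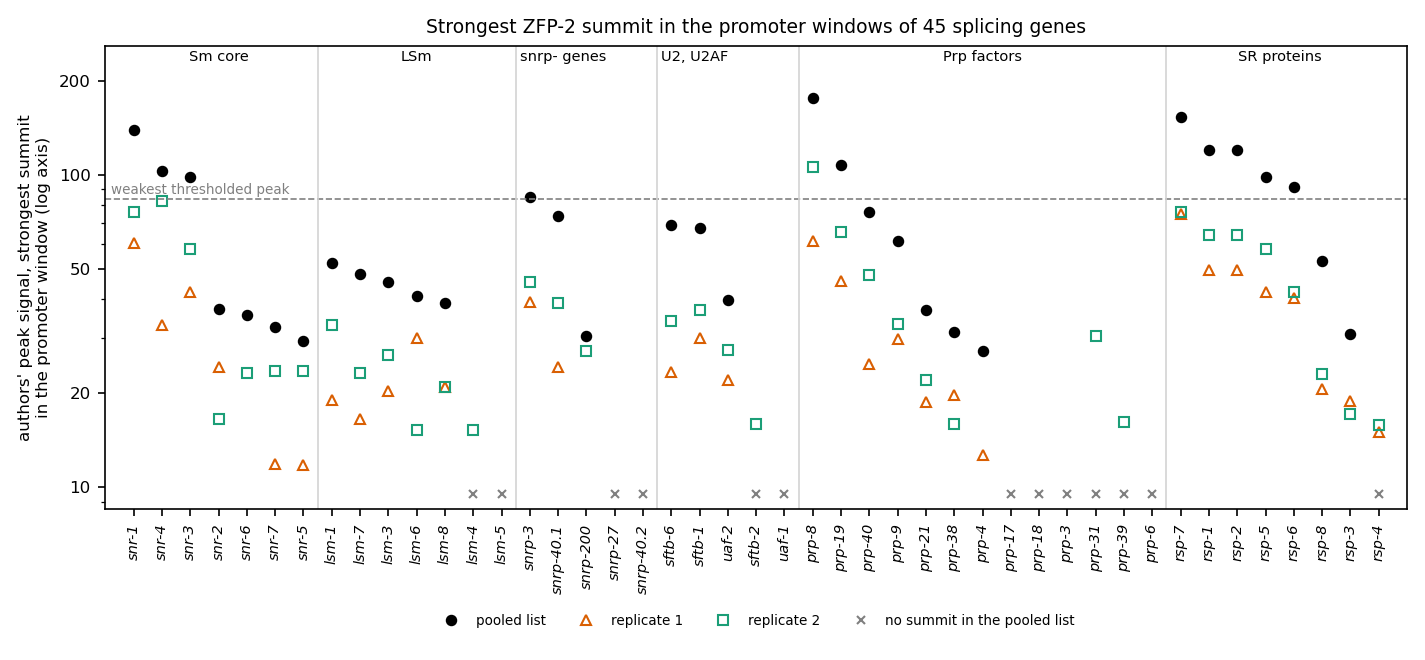
Points show, on a log axis, the authors' signal of the strongest summit in the promoter window of each of the 45 splicing genes, for the pooled list (black), replicate 1 (orange) and replicate 2 (green); crosses mark the 13 genes with no pooled summit, and the dashed line is the weakest thresholded signal, 83.8, which applies to the pooled list only. Pooled signals run up to 176 at prp-8, and the 11 genes above the line come from 4 of the 6 groups.

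The peaks of the 45 splicing genes by symbol were of modest height. Their signals ran from 85.1 to 176 with a median of 105, against a median of 119 over the 396 promoter peaks and a maximum of 4889 over all nuclear peaks. None of the 45 was reached by the 149 nuclear peaks stronger than that of prp-8. Those peaks lay in the windows of 175 genes (0.876% of all genes), and at that share 0 of 45 is near the background. Genes of the other list, given below, had stronger peaks, up to a signal of 3098 at sqd-1 (rank 9). Among the 330 strongest peaks the count was 5 of 45 (11.1%), against 1.57% of all genes, and the 5 were prp-8, rsp-7, snr-1, rsp-1 and rsp-2. Going down to the 1320 strongest pooled peaks, 16 of 45 (35.6%) held a summit, against 4.93%. The 5 added genes are prp-40, snrp-40.1, sftb-6, sftb-1 and prp-9. In the whole pooled list 32 of 45 (71.1%) did, against 25.4%. With genes without a summit set to 0, the median of the strongest pooled signal per gene was 38.9 over the 45 genes and 0 over all genes. There were 8 genes with no summit in the pooled list or in either replicate list: lsm-5, prp-3, prp-6, prp-17, prp-18, snrp-27, snrp-40.2 and uaf-1.

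**Figure D3:**
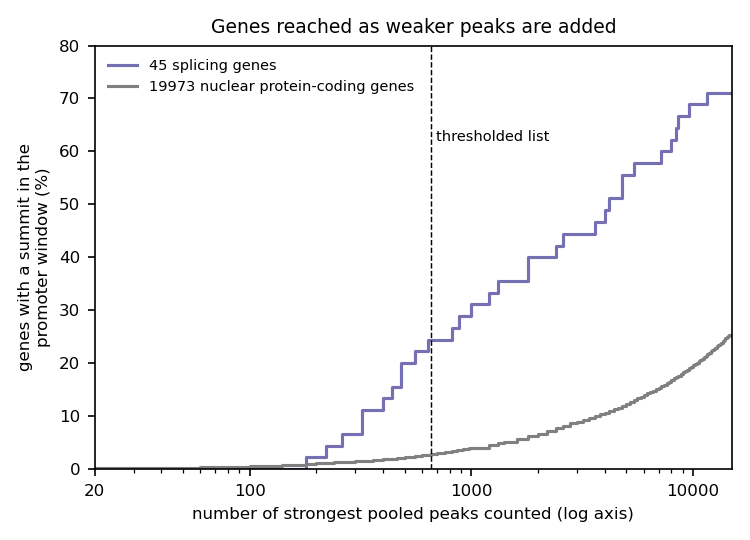
The percentage of the 45 splicing genes (purple) and of all 19973 nuclear protein-coding genes (grey) with a summit in the promoter window is plotted against the number of strongest pooled peaks counted, on a log axis, with the thresholded list marked at 660 peaks. Both curves start near 0, the splicing genes reach 24.4% against 2.79% at the mark and 71.1% against 25.4% at the end of the list.

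Each of the 10 peaks had a summit within 100 bp in each replicate list, at most 23 bp away in replicate 1 and 57 bp away in replicate 2. The thresholded list holds the strongest pooled peaks, and a requirement that each single peak agree between replicates cannot be read from it. Of its 642 nuclear peaks 607 (94.5%) had such a match in both lists, so the matches say nothing particular to splicing genes. Among the 660 strongest peaks of replicate 1 alone, 10 splicing genes (22.2%) held a summit against 2.81% of all genes, and among those of replicate 2 alone 9 (20%) against 2.74%. In all, 8 genes were reached in both and 11 in at least 1. The difference lay in snr-4, reached in replicate 2 alone, and in rsp-6 and snrp-3, reached in replicate 1 alone.

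By chromosome, 5 of 12 splicing genes on II held a thresholded summit, against 2.78% of all genes there. The counts were 3 of 8 on IV (against 2.9%), 2 of 10 on III (against 4.58%) and 1 of 6 on V (against 1.4%). On I the count was 0 of 8, which allows a share of up to 37.5%, against 4.31% of all genes there. The only gene on X held none, against 1.9%. The 5 on II are the members of the shared promoters.

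Among the 110 other genes listed for splicing and linked steps, not all of them spliceosomal, 12 held a thresholded summit (10.9%, against 2.79% of all genes). For 7 of the 12 the summit was also in the window of another gene, a share not given here for all called genes. At snu-13 the other gene is rsp-7, so that summit is a peak already counted in the set. The strongest summit of the 12 was at sqd-1, an RNA-binding protein gene, with signal 3098 at rank 9 and replicate signals of 1497 and 1620. The SR protein kinase gene spk-1 followed with 609 (replicates 285 and 323), in a window shared with the GTPase gene rheb-1, and then mog-4, a DEAH-box helicase gene, with 295 (replicates 139 and 155). The classes below are loose headings of the list and do not establish the role of each gene. The class headed by the Prp19 complex and catalysis had 4 of 33 (mog-4, syf-2, swp-1 and smu-1). It also holds other splicing factors, such as swp-1 and smu-1. Regulators of splice site choice had 5 of 38 (sqd-1, spk-1, fust-1, rsr-1 and tiar-1). Genes of the exon junction, cap binding, export and snRNP assembly had 2 of 19 (nxt-1 and hel-1), and the class of further snRNP proteins, which includes those of the tri-snRNP, had 1 of 20 (snu-13). The swp-1 summit (signal 157) was shared with rpl-23, a ribosomal protein gene, and the hel-1 summit (84.9) stood at rank 376 in replicate 2 and rank 3652 in replicate 1.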

How the data were processed

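ChIP-seq peak lists from 2 biological replicates of 1 group were used. Per the series' description files, the authors deposited a list per replicate, a list from both replicates and a list thresholded by irreproducible discovery rate (IDR), on ce10 and ce11. The signal of each peak is the authors' deposited value (narrowPeak column 7). The alignment tool, the program that called peaks and the IDR cutoff were not given in the sources used here. The linked control was not analysed here, and read depth is unknown.

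Coordinates are 1-based on ce11, with Ensembl release 115 annotation of WBcel235 (29784 annotated 5′ ends) and protein names from RefSeq. The 871 peaks of the thresholded ce10 list gave only a number of peaks for an alternative. Other alternatives changed the window, the number of peaks, the assignment of a summit to genes and the replicates used. Only the upper 660 pooled peaks are the thresholded list, so it carries no error of its own between replicates, and each replicate's 660 strongest peaks were used to judge that. No test was run, since the design has no contrast: counts stand beside the same count over all genes. Window calls were tested on summits planted inside the same windows, which checks the calling step only and not the annotation or the peak coordinates. Words were counted on both strands within 50 bp of the summit.

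Members and lists were chosen with earlier results of these data known. Named genes are those with a thresholded summit, those reached by the 1320 strongest pooled peaks, the strongest of the rest in each group, those with no pooled summit, and genes that share a summit with a member. Of 126 other symbols listed, 110 matched the annotation as written. Leaving out summits near small RNA genes and ignoring letter case in the list were added after seeing the data. Tables were made in Python 3.11.15 with pandas 2.3.3 and numpy 2.4.6, intervals with scipy 1.17.1 and figures with matplotlib 3.10.9.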

Additional observations from a re-analysis of the deposited data

How the results depend on the processing

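The count of splicing genes with a summit, 11, fell to 7 with nearest 5′ ends only, at any distance, and to 5 among the 330 strongest peaks. In its other alternatives it ran from 9 to 16, within 1.5 times. SR genes went from 5 to 3 under both of those settings, core snRNP genes from 4 to 1 among the 330 strongest, and the peaks in splicing windows from 10 to 4 there. The other listed genes went from 12 to 7 with nearest 5′ ends only and to 21 with the 1320 strongest pooled peaks. ACGCAG stood at 0 of 10 summits within 25 bp (11.4% of promoter summits), 2 within 50 bp and 3 within 100 bp (25%). GACGCA stood at 1 within 25 bp (12.4%) and at 4 within 50 bp and 100 bp (25.5% at 100 bp), and AGACGC at 0 within 25 bp (8.08%) and 2 within 50 bp and 100 bp (20.2% at 100 bp). With either replicate left out, counts ran from 9 to 10 splicing genes and 4 to 5 SR genes, with 3 core genes in both cases. They ran from 11 to 13 other listed genes, with 8 peaks in both cases. The fall among the stronger peaks follows from fewer peaks being counted. Windows from 500 bp upstream to 100 bp downstream gave 10 splicing genes, against 2.13% of all genes. Windows from 2000 bp upstream to 500 bp downstream gave 11 (against 3.7%). Any overlap of the peak gave 11 (against 3.03%), and the 871 strongest pooled peaks 12 (against 3.58%). With letter case ignored, 112 other genes matched and 12 of them held a summit. No paired analysis was possible because there is 1 group. Depth is unknown, so a missing summit does not show absence of binding.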
